A study of Mus musculus with 6 samples.

Results

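Expression of 8 genes of the perineuronal matrix was examined in mouse retinas that lacked or kept *Yap* in Müller glia: *Tnr* (tenascin R), the 4 lectican proteoglycans *Acan* (aggrecan), *Bcan* (brevican), *Ncan* (neurocan) and *Vcan* (versican), and the link protein genes *Hapln1*, *Hapln3* and *Hapln4*. The set was chosen by name, and each of the 8 symbols matched 1 row among the 55421 genes of the count table. RNA-seq of whole retina was available for 3 control and 3 *Yap* cKO mice at 2 months of age. Control mice carried Yapfl/fl alone (retinas YR612, YR613 and YR615) and *Yap* cKO mice carried Yapfl/fl;RaxCreERT2 (retinas YR711, YR713 and YR714). Both groups received 4-hydroxytamoxifen at postnatal days 10 and 14, so the drug was common to all 6 mice and the Cre transgene was not. The *Rax* promoter directs this Cre to Müller glia and to the non-pigmented epithelium of the ciliary body, and the other retinal cells keep an intact *Yap* gene. In whole tissue, fewer cells of a type and less RNA per cell cannot be told apart.

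Perineuronal matrix is a condensed coat around the cell body and dendrites of some neurons. Its backbone is hyaluronan, a long sugar polymer; lecticans bind hyaluronan at one end, link proteins clamp that contact, and tenascin R trimers tie the other ends of the lecticans together. The matrix is best known for limiting synaptic plasticity in the adult brain, and in the retina tenascin R has been associated above all with horizontal cells. Versican is also a component of the vitreous and of connective tissues.

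Libraries held between 24261799 and 35067068 counts assigned to genes. *Yap1*, the targeted gene, had 9.48, 9.52 and 9.83 TPM (counts divided by exonic length and scaled to a common library total) in control retinas against 3.99, 3.76 and 3.94 in *Yap* cKO retinas (log2 fold change −1.36, SE 0.093, edgeR adjusted p = 0.000282). Rod markers summed to between 51423 and 58024 TPM over the 6 retinas, which matches the labelled tissue. A gene was called changed when the adjusted p of edgeR's quasi-likelihood test did not exceed 0.05, the fold change reached 1.5 in either direction and 1 group averaged 5 TPM or more, criteria that 132 of 16575 tested genes met (0.796%). The p-values measure the spread between these 6 retinas, 1 per labelled animal code.

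The stretches upstream of 3 members are shown because YAP acts on genes through TEAD factors, whose binding motif is GGAATG or, on the other strand, CATTCC: *Tnr* and *Vcan* had the largest differences in each direction, and *Acan* was the one member with the motif. Each runs 5′ to 3′ for 250 bases up to the RefSeq start site on GRCm38.p6, in the direction of transcription, with the motif in capitals. They lie at chr1:159523519-159523768 (+) for *Tnr*, chr13:89742513-89742762 (−) for *Vcan* and chr7:79052976-79053225 (+) for *Acan*.
Tnr: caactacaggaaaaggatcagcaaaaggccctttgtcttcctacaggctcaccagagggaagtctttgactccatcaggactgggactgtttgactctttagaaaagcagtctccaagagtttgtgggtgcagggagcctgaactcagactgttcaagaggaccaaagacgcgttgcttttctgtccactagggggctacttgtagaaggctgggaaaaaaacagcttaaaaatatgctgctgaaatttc
Vcan: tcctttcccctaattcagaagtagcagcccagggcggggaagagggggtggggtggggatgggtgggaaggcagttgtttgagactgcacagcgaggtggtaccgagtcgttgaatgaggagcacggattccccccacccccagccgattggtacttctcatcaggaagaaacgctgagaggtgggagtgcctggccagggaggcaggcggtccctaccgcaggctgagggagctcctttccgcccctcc
Acan: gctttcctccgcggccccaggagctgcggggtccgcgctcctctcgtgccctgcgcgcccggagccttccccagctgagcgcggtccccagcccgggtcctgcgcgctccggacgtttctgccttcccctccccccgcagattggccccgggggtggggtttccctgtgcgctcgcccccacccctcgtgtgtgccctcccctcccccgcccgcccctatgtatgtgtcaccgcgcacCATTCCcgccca
The motif was found in 1 of the 7 members with a listed promoter, *Acan*, 12 bases before the start site, and in 12.6% of all 32851 promoters searched over the same length. *Hapln4* had no entry in the promoter table. A match of letters is a description of the sequence, and its absence from this window says only that these letters are not there.

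*Tnr* was the most abundant member and *Acan* the least. On the TPM scale, which corrects for length, control retinas averaged 32.6 ± 7.53 (SD, n = 3) for *Tnr* and 14.2 ± 1.11 for *Hapln4*, with no overlap between the retinas of these neighbours in the order. *Ncan* (5.85 ± 0.344) and *Bcan* (5.68 ± 0.810) followed, and their retinas overlapped. *Vcan* (3.09 ± 0.548), *Hapln3* (2.28 ± 0.405) and *Hapln1* (2.19 ± 0.681) overlapped in the same way, neighbour with neighbour. *Acan* stood apart at the bottom with 0.242 ± 0.0616 TPM, a level that rests on 8 to 16 counts per library. The same pairs overlapped or were separate in *Yap* cKO retinas, except *Hapln3* and *Hapln1*, which overlapped in control retinas and were apart in *Yap* cKO retinas, with *Hapln1* higher. *Hapln2*, the fourth link protein gene and not one of the 8, had between 0 and 3 counts per library and was not tested.

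**Figure D1:**
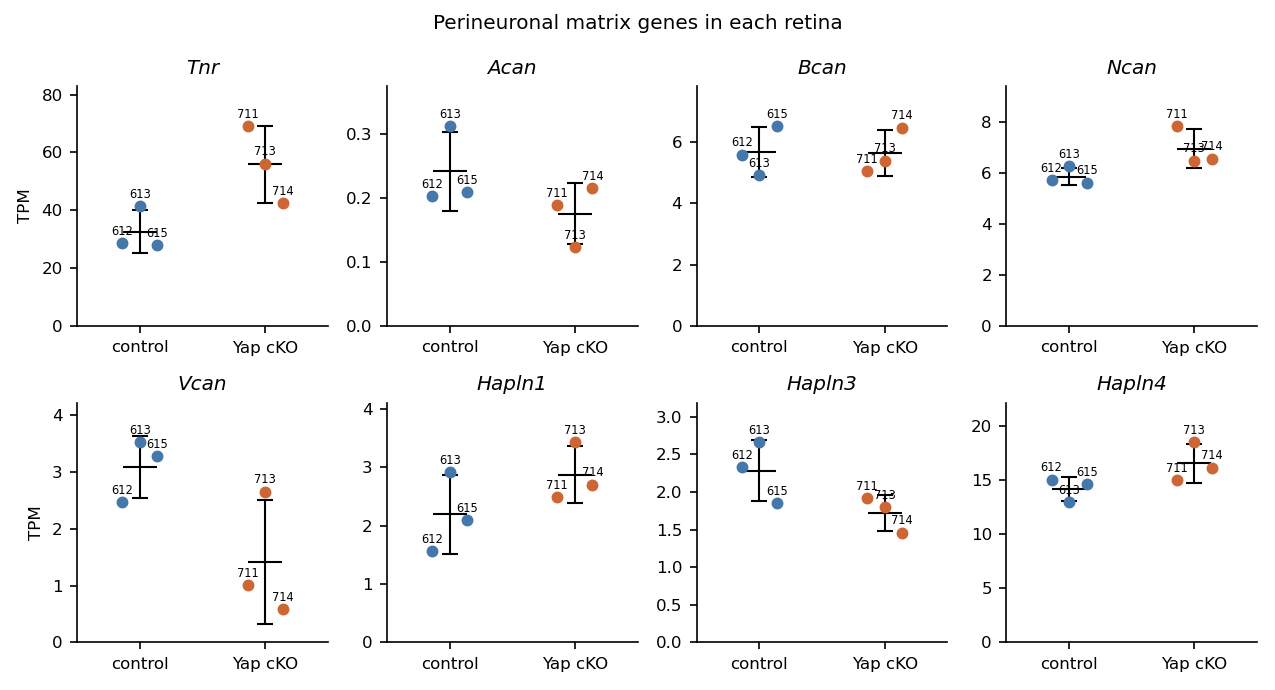
TPM of each of the 8 genes in every retina, 1 panel per gene with its own axis; points are single retinas and bars the mean ± SD of the 3 retinas of a group. The control and *Yap* cKO points are separate in the panels of *Tnr* and *Ncan* and overlap in the other 6.

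No member met the 3 criteria in the edgeR quasi-likelihood fit, beside 0.796% of all tested genes. Of the 8 members, 4 had a positive and 4 a negative log2 fold change, with a median of 0.046 against 0.0017 over all tested genes. An unadjusted p of at most 0.05 was found for 3 members, *Tnr* in the positive and *Vcan* and *Hapln3* in the negative direction, beside 21.4% of all tested genes. DESeq2 called 1 member, *Tnr*, as did edgeR's likelihood ratio test, beside 1.59% and 1.76% of all tested genes, and limma-voom called 0 members beside 0.851%. *Tnr* was also called with no filter on low counts (beside 1.22% of genes) and with a correction for GC content (beside 1.19%), a setting chosen after seeing the data. The paper, which used edgeR with the same limits, lists *Tnr* among its differentially expressed genes. Its methods do not name the edgeR test. *Vcan*, *Hapln1*, *Hapln3* and *Acan* averaged under 5 TPM in both groups, so none of them met the criterion on level. From their control levels a decrease could not have met all 3 criteria, whereas a large enough increase could. TPM was higher in all 3 *Yap* cKO retinas than in all 3 control retinas for 2 members, *Tnr* and *Ncan*, a pattern that 15.2% of tested genes showed; the opposite pattern, shown by 9.04% of tested genes, was found in 0 members. With 3 retinas against 3, a two-sided exact permutation test of a single gene cannot give a p below 0.1.

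**Figure D2:**
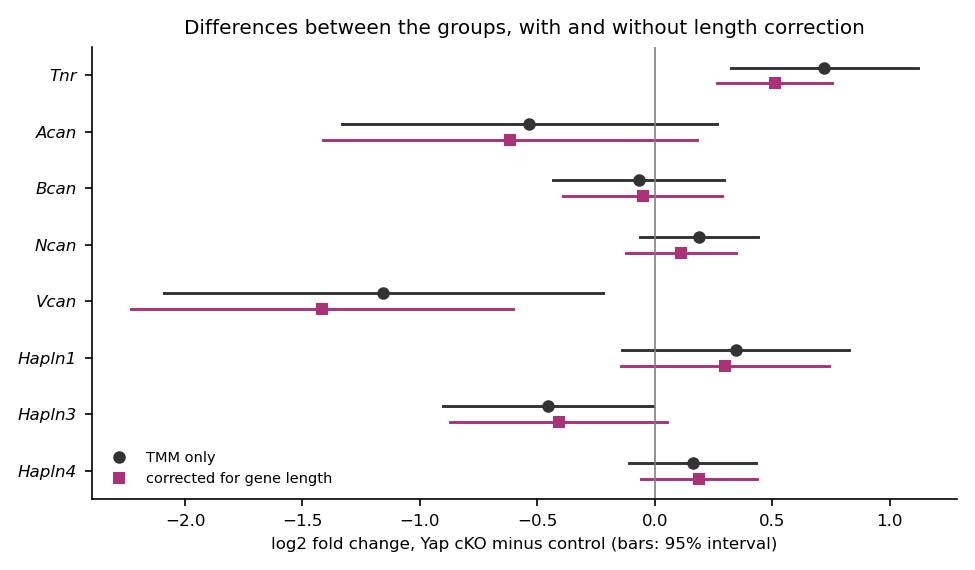
Log2 fold change of *Yap* cKO against control with its 95% interval for the 8 genes, fitted with TMM scaling alone and with offsets that also correct for gene length. *Tnr* has the highest value in both fits (0.72 and 0.51) and *Vcan* the lowest (−1.16 and −1.42).

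Tenascin R is a large glycoprotein whose trimers crosslink lecticans. *Tnr* (ENSMUSG00000015829; GRCm38 chromosome 1, 159523769 to 159931729, + strand) spans 408 kb and holds 12867 exonic bases. Control retinas had 28.7 (YR612), 41.3 (YR613) and 27.9 TPM (YR615), and *Yap* cKO retinas 69.1 (YR711), 56.1 (YR713) and 42.6 TPM (YR714). The groups did not overlap, but the lowest *Yap* cKO retina lay close to the highest control, and each group was spread widely. The fold change was 1.65 (95% interval 1.25 to 2.17; log2 fold change 0.72, SE 0.18), and its edgeR adjusted p was 0.0813. Without the control YR613 the log2 fold change was 0.90 and *Tnr* was called (edgeR adjusted p = 0.0139, beside 3.06% of tested genes), and without the *Yap* cKO retina YR714 it was 0.87 and also called (edgeR adjusted p = 0.0143, beside 2.66%). These were the highest control and the lowest *Yap* cKO retina, so leaving out either one had to widen the difference. Leaving out YR612, YR615, YR711 or YR713 instead gave edgeR adjusted p of 0.298, 0.2997, 0.179 and 0.286, and *Tnr* was not called. Over all alternative settings the adjusted p of *Tnr* ranged from 1.22e-10 (edgeR with no filter on low counts) to 0.2997 (edgeR without the control YR615), and its log2 fold change was positive in each. With no filter the log2 fold change was also 0.72, so the lower p there does not reflect a larger difference between the groups.

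Gene length was set beside the value of *Tnr*. Over all 16575 tested genes the log2 fold change went up with exonic length (Spearman's rho 0.391 across genes, which are not independent replicates), and its median was −0.17 in the shortest decile and 0.21 in the longest, which begins at 9602 bases and holds *Tnr* and *Vcan*. Within that longest decile the lower and upper quartiles were 0.076 and 0.36, and 1.69% of them had a higher log2 fold change than *Tnr*. The tilt also differed among retinas of 1 group: rho between a gene's expression relative to the 6-retina mean and its length was −0.413 (YR612), 0.172 (YR613) and −0.405 (YR615) in control retinas and 0.396 (YR711), 0.385 (YR713) and −0.151 (YR714) in *Yap* cKO retinas. YR613 and YR714 thus departed from the sign of their groups, and they were also the highest control and the lowest *Yap* cKO retina for *Tnr*.

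Relative to the mean over the 6 retinas, log2 expression of *Tnr* was −0.47, −0.035 and −0.57 in control and 0.67, 0.38 and 0.021 in *Yap* cKO retinas. After the median of the longest decile in the same retina was subtracted, the values were −0.27, −0.097 and −0.39 against 0.48, 0.23 and 0.042, and the groups still did not overlap. A fit whose offsets were corrected for length in each retina gave *Tnr* a log2 fold change of 0.51 (SE 0.11, 95% interval 0.27 to 0.75, edgeR adjusted p = 0.0400), past the threshold on p and short of a 1.5-fold change, so that *Tnr* was not called there either. With that correction 2.77% of all tested genes passed the threshold on p, against 1.49% without it, and 0.935% met the 3 criteria. What makes expression tilt with length in these retinas was not tested.

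**Figure D3:**
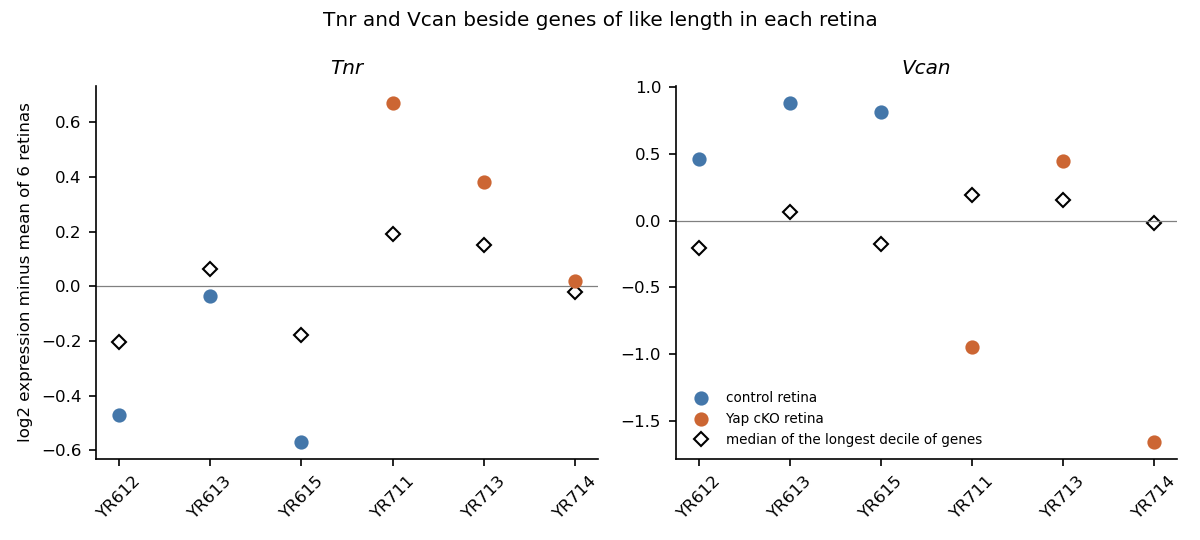
Log2 expression of *Tnr* and *Vcan* in each retina relative to the mean of the 6 (filled points), with the median of the longest decile of tested genes in the same retina as open diamonds. *Tnr* lies below the diamond in all 3 control retinas and above it in all 3 *Yap* cKO retinas; *Vcan* lies above it in all 3 control retinas and in the *Yap* cKO retina YR713, and far below it in YR711 and YR714.

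Among the lecticans, the largest difference was in *Vcan*, which encodes the hyaluronan-binding proteoglycan of vitreous and connective tissue. *Vcan* (ENSMUSG00000021614; chromosome 13, 89655312 to 89742509, − strand) is the longest member, with 14462 exonic bases. Control retinas had 2.47, 3.52 and 3.27 TPM, and *Yap* cKO retinas had 1.01 (YR711), 2.65 (YR713) and 0.587 TPM (YR714). The groups overlapped, since YR713 lay above the lowest control retina while the other two *Yap* cKO retinas lay well below all controls. The fold was 0.449 (95% interval 0.235 to 0.858; log2 fold change −1.16, SE 0.42), with an edgeR adjusted p of 0.165. Without YR713 the log2 fold change was −2.01 and the edgeR adjusted p 0.00972, a fit in which 0.552% of tested genes passed the threshold on p. YR713 was the retina that overlapped the controls, so leaving it out had to widen the difference. Leaving out YR612, YR613, YR615, YR711 or YR714 instead gave edgeR adjusted p of 0.357, 0.148, 0.404, 0.329 and 0.119. Over all alternative settings the adjusted p of *Vcan* ranged from 4.33e-12 (edgeR with no filter on low counts) to 0.404 (edgeR without the control YR615), and its log2 fold change was negative in each. With no filter the log2 fold change was −1.15 from the same counts, so the lower p there does not reflect a larger difference between the groups. The value of *Vcan* ran against its length: with the length correction it was −1.42 (SE 0.37, edgeR adjusted p = 0.0688), and 99.4% of the longest decile of genes had a higher log2 fold change.

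The *Yap* cKO retina that stood apart for *Vcan* also had the highest value of its group for *Optc* (opticin, a vitreous protein made by the ciliary epithelium), which was called lower. *Optc* had 50.2, 45.6 and 48.2 TPM in control retinas and 2.86, 8.39 and 2.44 TPM in YR711, YR713 and YR714 (log2 fold change −3.41, edgeR adjusted p = 0.00243). Of 9 markers of the ciliary non-pigmented epithelium, all tested, edgeR's quasi-likelihood test and limma-voom called *Optc* (beside 0.796% and 0.851% of all tested genes), DESeq2 and the likelihood ratio test called *Optc* and *Bmp4*, a growth factor, both lower (beside 1.59% and 1.76%), and 5 had an unadjusted p of at most 0.05 (beside 21.4%). *Slc4a4*, a bicarbonate transporter, passed the threshold on p with a positive log2 fold change of 0.57 that was short of 1.5-fold. The summed level of the list ranged from 626 to 698 TPM in control and from 664 to 765 TPM in *Yap* cKO retinas. Of 9 fibroblast markers 5 were tested and 0 were called by edgeR, DESeq2, the likelihood ratio test or limma-voom. The collagen gene *Col1a2*, passed the threshold on p (beside 1.49% of all tested genes) and was under 5 TPM, with 3.09, 3.11 and 4.37 TPM in control and 0.794, 1.06 and 0.577 TPM in *Yap* cKO retinas (log2 fold change −2.16, edgeR adjusted p = 0.00236). Its groups did not overlap, and YR713 was the highest *Yap* cKO retina. For any gene 1 of the 3 *Yap* cKO retinas is the highest, and the share of genes with YR713 highest was not computed. The fibroblast list summed to between 28.2 and 38.89 TPM in control and between 27.1 and 36.2 TPM in *Yap* cKO retinas. All 9 markers of each list had counts in these libraries. *Bmp4*, *Slc4a4* and *Col1a2* were named after their values were seen. The part of ciliary tissue carried along with the retina in the values of *Vcan* was not tested.

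*Ncan* and *Bcan*, the lecticans most characteristic of nervous tissue, were near 6 TPM. *Ncan* (ENSMUSG00000002341; chromosome 8, 70093085 to 70120873, − strand) had 5.71, 6.25 and 5.61 TPM in control and 7.83, 6.47 and 6.55 TPM in *Yap* cKO retinas. All 3 *Yap* cKO values lay above the controls, by a narrow margin. The log2 fold change was 0.19 (95% interval −0.061 to 0.44, edgeR adjusted p = 0.343) and 0.11 with the length correction. *Bcan* (ENSMUSG00000004892; chromosome 3, 87987531 to 88000230, − strand) had 5.59, 4.92 and 6.53 TPM against 5.05, 5.40 and 6.48 TPM. These ranges overlapped almost fully, and the 95% interval of the *Bcan* log2 fold change, −0.43 to 0.29, bounds the fold between 0.741 and 1.23 (edgeR adjusted p = 0.824).

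*Acan*, whose product is the major proteoglycan of cartilage and of cortical perineuronal nets, was close to the limit of detection. The gene (ENSMUSG00000030607; chromosome 7, 79053483 to 79115099, + strand) had 10, 16 and 12 counts in control and 9, 8 and 11 counts in *Yap* cKO retinas. The groups overlapped, and the interval of the fold, 0.397 to 1.20, was wide (log2 fold change −0.53, edgeR adjusted p = 0.396). That interval includes no change, and the smallest change of *Acan* detectable at this depth was not computed.

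Added together, the 4 lecticans kept nearly the same level while their composition shifted in some retinas. Their summed level was 13.98, 15.0 and 15.6 TPM in control and 14.1, 14.6 and 13.8 TPM in *Yap* cKO retinas. *Vcan* supplied 17.7%, 23.5% and 21.0% of that sum in control retinas and 7.15%, 18.1% and 4.24% in YR711, YR713 and YR714. The ratio of *Tnr* to the summed lecticans was 2.05, 2.75 and 1.78 in control and 4.91, 3.83 and 3.08 in *Yap* cKO retinas, groups that did not overlap. *Tnr* alone already separated the groups, and the ratio was not corrected for the tilt with length. *Tnr* alone made up 44.9% to 55.2% of the summed level of all 8 genes in control retinas and 55.5% to 67.4% in *Yap* cKO retinas.

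Link proteins stabilise the bond between a lectican and hyaluronan. *Hapln4*, the link protein that accompanies brevican in the brain, was the most abundant of the 3 (ENSMUSG00000007594; chromosome 8, 70083457 to 70090862, + strand). It had 15.1, 12.98 and 14.7 TPM in control and 15.0, 18.5 and 16.2 TPM in *Yap* cKO retinas. The groups overlapped through YR711, and the log2 fold change was 0.16 (95% interval −0.11 to 0.43, edgeR adjusted p = 0.451).

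*Hapln1* encodes the classical cartilage link protein, which also occurs in perineuronal nets (ENSMUSG00000021613; chromosome 13, 89539796 to 89611652, + strand). It had 1.57, 2.92 and 2.09 TPM against 2.49, 3.43 and 2.703 TPM, with the control YR613 above 2 of the *Yap* cKO retinas. Its log2 fold change was 0.34 (95% interval −0.14 to 0.83, edgeR adjusted p = 0.370). *Hapln3* (ENSMUSG00000030606; chromosome 7, 79115102 to 79131018, − strand) had 2.33, 2.66 and 1.85 TPM in control and 1.92, 1.80 and 1.46 TPM in *Yap* cKO retinas. The groups overlapped where YR711 exceeded the control YR615, and the log2 fold change was −0.45 (95% interval −0.90 to −0.0079, edgeR adjusted p = 0.227).

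Each link protein gene lies beside a lectican gene, with 0 annotated genes between them. *Acan* and *Hapln3* end 2 bases apart, tail to tail, *Ncan* and *Hapln4* 2222 bases apart and *Vcan* and *Hapln1* 43659 bases apart, also tail to tail. The log2 fold changes within these pairs were −0.53 and −0.45 for *Acan* and *Hapln3*, 0.19 and 0.16 for *Ncan* and *Hapln4*, and −1.16 and 0.34 for *Vcan* and *Hapln1*. The sign was thus shared in the closer pairs and opposite in the widest, with none of the 6 genes called. The 95% intervals of *Acan*, *Ncan*, *Hapln4* and *Hapln1* included 0, so these signs are a description. A relation to the distance between the genes was not tested. No member shared exonic bases with another gene on its own strand, and *Tnr* shared 443 bases (3.44% of its exonic length) with the opposite-strand gene *Gm38039*, from which stranded counting separates it.

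**Figure D4:**
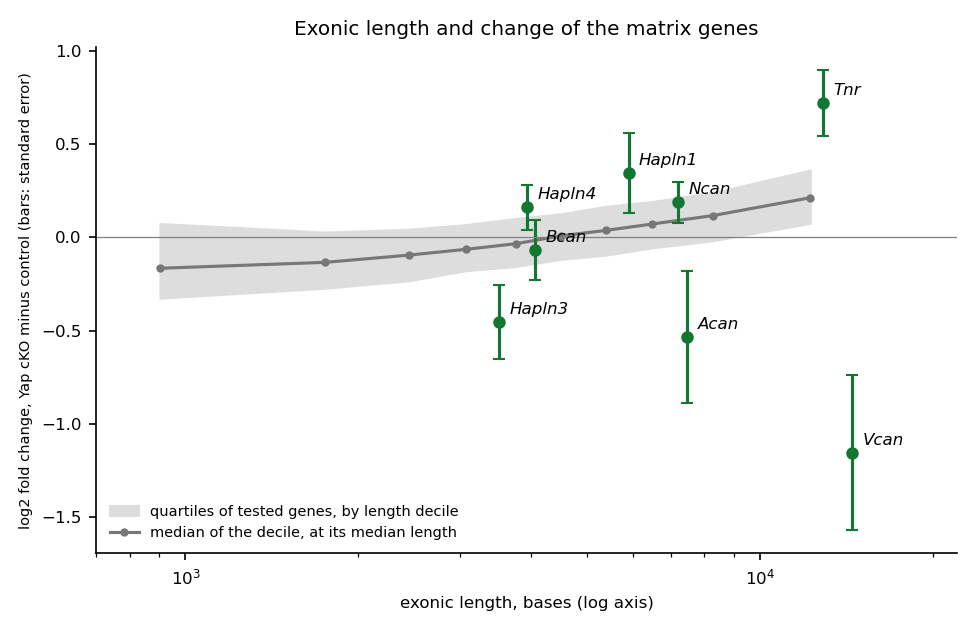
Log2 fold change of *Yap* cKO against control, with its standard error, against exonic length on a log axis for the 8 genes; the line and band are the median and quartiles of tested genes in each length decile. *Tnr*, *Hapln1* and *Hapln4* lie above the band, *Vcan*, *Acan* and *Hapln3* below it, and *Ncan* and *Bcan* within it. The band spans only the quartiles, so many tested genes also lie outside it. *Tnr* and *Vcan* are both in the longest decile, and the 8 genes as a set do not follow the slope of the band (Spearman's rho −0.0714, a description over 8 points).

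The 2 longest members had the most positive and the most negative log2 fold change of the 8, while across all genes the change went up with length. Each member can be set against the median log2 fold change of its own length decile, which was −0.034 for *Bcan*, *Hapln3* and *Hapln4*, 0.072 for *Ncan* and *Hapln1*, 0.12 for *Acan* and 0.21 for *Tnr* and *Vcan*. The length correction left the sign of all 8 members as it was and moved their median from 0.046 to 0.029. Values with the correction were −0.62 for *Acan*, −0.052 for *Bcan*, 0.30 for *Hapln1*, −0.41 for *Hapln3* and 0.19 for *Hapln4*.

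The genes whose log2 expression followed *Tnr* most closely over the 6 retinas, among 11993 genes with a mean of at least 5 TPM, were *Meaf6* (Pearson's r 0.999), a subunit of histone acetyltransferase complexes, *Hivep2* (0.999), a zinc finger transcription factor, *Ndnf* (0.998), a secreted neurotrophic factor, *Mfsd6* (0.998) and *Sort1* (0.998), a sorting receptor. The 6 points share library, depth and the tilt with length, so these values are a description. All 5 genes are longer than the tested median of 4132 exonic bases, none was called, and after length correction 3 of them remained among the 5 most alike (*Meaf6*, *Sort1* and *Hivep2*). Their log2 fold changes, from 0.19 for *Meaf6* to 0.48 for *Hivep2*, were smaller than that of *Tnr*.

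Around the 8 genes, 6 lists covered the making, binding and cutting of this matrix, with 81 genes of which 73 were tested. The edgeR quasi-likelihood test called 1 gene higher and 0 lower, beside 0.211% and 0.585% of all tested genes. Unadjusted p was at most 0.05 for 19 genes in the positive and 2 in the negative direction, beside 21.4% of all tested genes in either direction. That share joins the directions, so the split by direction has no comparison here. Over all tested genes the log2 fold change also went up with exonic length. DESeq2 and the likelihood ratio test each called 2 genes higher (*Adamts1* and *Chst3*, beside 1.59% and 1.76% of all tested genes), and limma-voom called 1 (beside 0.851%). The called gene was *Adamts1*, a secreted protease that cuts aggrecan and versican (chromosome 16, 85793827 to 85803113). It had 18.0, 19.2 and 21.5 TPM in control and 27.1, 32.9 and 33.0 TPM in *Yap* cKO retinas, 2 groups well apart. Its log2 fold change was 0.61 (SE 0.11, edgeR adjusted p = 0.0318) and fell short of 1.5-fold at 0.58 with the length correction (edgeR adjusted p = 0.0180).

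The remaining lists held no called gene in the quasi-likelihood fit. Among 12 tested tenascins, proteoglycans and other matrix partners the median log2 fold change was 0.16, or 0.068 with the length correction, and the smallest p belonged to *Tnc* (tenascin C, 0.41, edgeR adjusted p = 0.0539) and *Nptx1* (a synaptic pentraxin, 0.27, edgeR adjusted p = 0.100). For 13 tested genes of hyaluronan metabolism and binding the median was 0.10 (0.053 with the correction), led by the hyaluronan-degrading *Cemip* (0.46, edgeR adjusted p = 0.0884) and *Hyal1* (0.60, edgeR adjusted p = 0.122). The 15 genes of chondroitin sulfate chain synthesis had a median of 0.035 (0.020 with the correction), with *Xylt1*, which starts the sugar chain, at 0.58 (edgeR adjusted p = 0.0847) and the sulfate donor transporter *Slc35b2* at −0.29 (edgeR adjusted p = 0.129).

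Sulfation sets which factors the chains bind. The 10 tested sulfotransferases and related enzymes had a median log2 fold change of 0.10 (0.12 with the correction), with *Chst3*, the chondroitin 6-sulfotransferase, at 0.59 (edgeR adjusted p = 0.0692) and *Chst11*, a 4-sulfotransferase, at 0.32 (edgeR adjusted p = 0.100). With the length correction *Xylt1* (edgeR adjusted p = 0.0414) and *Chst3* (edgeR adjusted p = 0.0432) passed the threshold on p and were short of a 1.5-fold change. The 13 tested receptors of lecticans and tenascin R had a median of 0.19 (0.082 with the correction), and their smallest p belonged to the cell adhesion molecules *Nrcam* (0.36, edgeR adjusted p = 0.125) and *Nfasc* (0.33, edgeR adjusted p = 0.169). The 11 proteases and their inhibitor had a median of 0.099 (−0.058 with the correction), and the second gene by p after *Adamts1* was the aggrecan-cutting *Adamts4* (0.76, edgeR adjusted p = 0.226).

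**Figure D5:**
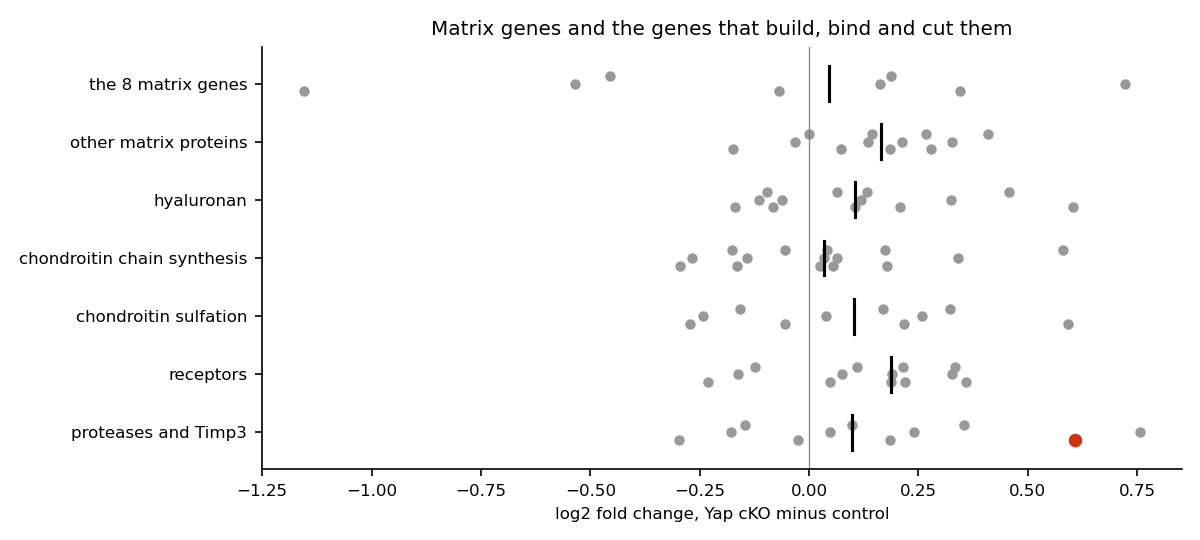
Log2 fold change of every tested gene of the 8 members and of each pathway list, 1 row per list. Black bars are list medians, and red marks a gene that met the 3 criteria. The only red point is *Adamts1*, to the right of 0.

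Markers of the cells that could supply this matrix were set beside *Tnr*. Over all tested genes, 21.4% had an unadjusted p of at most 0.05, 0.796% were called by the quasi-likelihood test and 1.59% by DESeq2. All 8 horizontal cell markers were tested and 0 were called by edgeR's quasi-likelihood test (6 at an unadjusted p of at most 0.05, 1 called by DESeq2), 4 had a positive and 4 a negative log2 fold change, and their sum ranged from 358 to 390 TPM in control and from 362 to 407 TPM in *Yap* cKO retinas. That sum joined markers of opposite sign. The transcription factor genes *Prox1* (log2 fold change 0.59, called by DESeq2), *Onecut1* (0.99), *Onecut2* (0.54) and *Lhx1* (0.42) were on the positive side with *Tnr*, while the abundant *Sept4* (−0.32), a septin, and *Calb1* (−0.23), the calcium-binding protein calbindin, were on the negative side. *Prox1* had 55.6, 79.8 and 57.8 TPM in control and 115, 103 and 84.5 TPM in *Yap* cKO retinas, with YR613 the highest control and YR714 the lowest *Yap* cKO retina, as for *Tnr*. Its edgeR adjusted p was 0.0726, and 0.0268 with the length correction at a log2 fold change of 0.49, short of 1.5-fold. The 6 horizontal cell markers named here, and *Grm6* among the bipolar cell markers, were named after their values were seen. All 10 amacrine cell markers had positive log2 fold changes (median 0.21) with 0 called (5 at an unadjusted p of at most 0.05, 0 called by DESeq2), and their sum of 760 to 850 TPM in control did not overlap the 925 to 974 TPM in *Yap* cKO retinas. Müller glia markers summed to between 5740 and 6195 TPM against between 5354 and 6039 TPM, with 0 of 10 called by quasi-likelihood or DESeq2 (4 at an unadjusted p of at most 0.05). Of 10 markers of the oligodendrocyte lineage, which makes tenascin R in the brain, 5 were tested, *Olig2* had no counts, 0 were called by quasi-likelihood or DESeq2 (1 at an unadjusted p of at most 0.05), and the sum ranged from 46.4 to 49.1 TPM against 47.7 to 49.4 TPM.

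Among 7 astrocyte markers 1 was called by quasi-likelihood and by DESeq2, *Aldh1l1* (a folate enzyme; log2 fold change −0.79), and the list summed to between 114 and 133 TPM in control and between 112 and 124 TPM in *Yap* cKO retinas. Ganglion cell markers summed to 2211 to 2510 TPM against 2260 to 2531 TPM and bipolar cell markers to 1276 to 1348 TPM against 1339 to 1507 TPM, with 0 of 10 called in each by quasi-likelihood (0 and 7 at an unadjusted p of at most 0.05, and 0 and 1 called by DESeq2). Of the bipolar cell markers *Grm6*, a glutamate receptor, passed the threshold on p in the quasi-likelihood fit without reaching 1.5-fold. The part of these cell types in the values of *Tnr* was not tested.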

How the data were processed

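Poly(A) RNA of 6 retinas was sequenced from stranded libraries. The authors aligned reads with STAR 2.7.3a to GRCm38 and counted them per gene with featureCounts 1.6.2 on the reverse strand, and the deposited values are raw counts. The header of the count table names Ensembl release 98. The deposited table also gives the exonic length of each gene, from which TPM was computed. Tests used edgeR 4.0.16 in R 4.3.3 on the counts: filtering by group with filterByExpr, TMM scaling, a quasi-likelihood fit of *Yap* cKO against control without covariates, and Benjamini-Hochberg adjustment over all 16575 tested genes. The limits for a call were 0.05 for the adjusted p, 1.5 for the fold change and 5 for the mean TPM of 1 group. The length correction fitted loess (span 0.3) of relative log2 expression on log2 exonic length in each retina and entered as offsets.

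Depth ranged from 24261799 to 35067068 counts. Intervals are 95%, and those at few counts rest mainly on counting error. Alternatives were other size factors, DESeq2 1.42.0, limma-voom (limma 3.58.1), edgeR's likelihood ratio test, other filters, the length correction and leaving out each retina. A correction for GC content was added after seeing the data. Scripts were tested on simulated data.

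The members and lists were chosen with earlier results of these data known. Named genes were *Yap1*, the 8 members, in each pathway list the called genes and the 2 with the smallest p, in cell lists called genes, and the 5 genes most like *Tnr* by Pearson's r of log2 CPM. *Hapln2* and *Gm38039* were named for their position. Promoters are RefSeq sequences on GRCm38.p6, matched by symbol for 7 of 8 members. Marker lists came from textbook knowledge.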

Additional observations from a re-analysis of the deposited data

How the results depend on the processing

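Of 135 values of the 8 members under alternative settings, 121 kept their direction and their side of the threshold on p, 11 newly passed it and 3 changed sign, all 3 for *Bcan*. *Tnr* passed under DESeq2 (0.72), the likelihood ratio test (0.72), no filter on low counts (0.72), the length correction with either test (0.51 and 0.51) and the GC correction (0.71), and leaving out 1 retina gave 0.55 (without YR711) to 0.90 (without YR613). *Vcan* passed with no filter (−1.15) and with length correction and likelihood ratio test (−1.45), and ranged from −2.01 (without YR713) to −0.80 (without YR714). With no filter on low counts, 6.19% of tested genes passed the threshold on p, against 1.49% with the filter. The log2 fold changes of *Tnr* and *Vcan* hardly moved there. *Bcan* was 0.035 with the GC correction and ranged from −0.20 to 0.040 when 1 retina was left out.

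The count of members called was 1 with DESeq2, 1 with the likelihood ratio test, 1 with no filter and 1 with the GC correction, and 0 to 1 with 1 retina left out. The members' median of 0.046 was 0.16 with a filter at 1 CPM, which drops *Acan*, and 0.14 with the GC correction, and ranged from −0.049 (without YR613) to 0.097 (without YR615). The 132 genes called became 263 with DESeq2, 291 with the likelihood ratio test, 369 with no filter, 245 with length correction and likelihood ratio test and 247 on adjusted p alone, and ranged from 38 (without YR615) to 516 (without YR613). The cause of these shifts was not tested.

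No paired analysis was possible because the labels give each retina an animal code and the groups share no replicate numbers. The codes of the groups lie in separate number ranges, so anything that follows the code cannot be told apart from genotype. The sex and litter of these mice are not given. Depth limits *Acan* most.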
